A study of Mus musculus with 9 samples.

Results

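The extracellular matrix, integrin and metalloprotease genes were taken as every row whose mouse gene symbol names a collagen or laminin chain, an integrin, an ADAM, ADAMTS or MMP protease, a tissue inhibitor of metalloproteases (TIMP), fibronectin, a tenascin, a proteoglycan of the lectican family or a hyaluronan link protein. By this rule 88 of the 12275 genes in either of the 2 deposited tables were members, of which 67 of 9872 stood in the table that compares balancing (BA) with avoiding (AV) mice and 80 of 11820 in the table that compares BA with approaching (AP) mice. Both tables held 59 of them. The annotation holds 181 names that match, and 93 of these were in neither table, among them Tnr, Hapln1, Hapln3, Hapln4, Itgb2, Itga8, Mmp9, Mmp24 and Timp1. Itgb1bp1 and Itgb3bp match by name but encode partners of integrins, not integrin chains, which leaves 65 and 78 members without them.

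The extracellular matrix of the brain is a hyaluronan scaffold that carries chondroitin sulfate proteoglycans, held together by link proteins and tenascins, with collagens and laminins mainly in the basement membranes of vessels. Cells attach to it through integrins, which are pairs of an alpha and a beta chain that signal through focal adhesion kinases. ADAM proteases mostly cut proteins at the cell surface, ADAMTS proteases cut proteoglycans and procollagens, MMPs cut matrix proteins more broadly, and TIMPs inhibit all of these to different degrees.

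RNA was sequenced from cells sorted by yellow fluorescence from the amygdala of 9 untreated B6.Cg-Tg(Thy1-YFP)HJrs/J mice, a line in which the Thy1 promoter drives the fluorescent protein in pyramidal neurons of the amygdala, neocortex and hippocampus and in some other neurons. All groups carried the transgene and were told apart by behavior alone, in a choice between a food reward in an aversive bright arm and a familiar food in a dark arm. For this task all mice had been given a palatable food and kept on limited food access, and they were sacrificed a month after it. The study names no drug treatment. There were 3 BA mice with balanced choices, 3 AV mice and 3 AP mice, and each library was the amygdala of 1 mouse, so that the p-values below measure the spread between single mice of a group. AV mouse 2 had been dropped by the authors as an outlier, which leaves 2 AV mice, and the same 3 BA mice stand in both tables, each table normalized on its own. Ages of the mice are not given in the sources used here.

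The normalized values summed to between 3267970 and 3974270 in each mouse of the BA vs AV table, and 4589300 to 5072770 in each mouse of the BA vs AP table. The sorted cells were labelled pyramidal neurons, but of 8 markers of these neurons only Camk2a was listed in either table, and Thy1 and Slc17a7 were not listed in either. The 6 listed oligodendrocyte markers had the largest summed value of 8 marker lists in every mouse. In the BA vs AV table they summed to between 179351 and 222221 in BA mice and between 51194 and 78859 in AV mice. The plot of marker sums shows these values for each mouse.

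**Figure D1:**
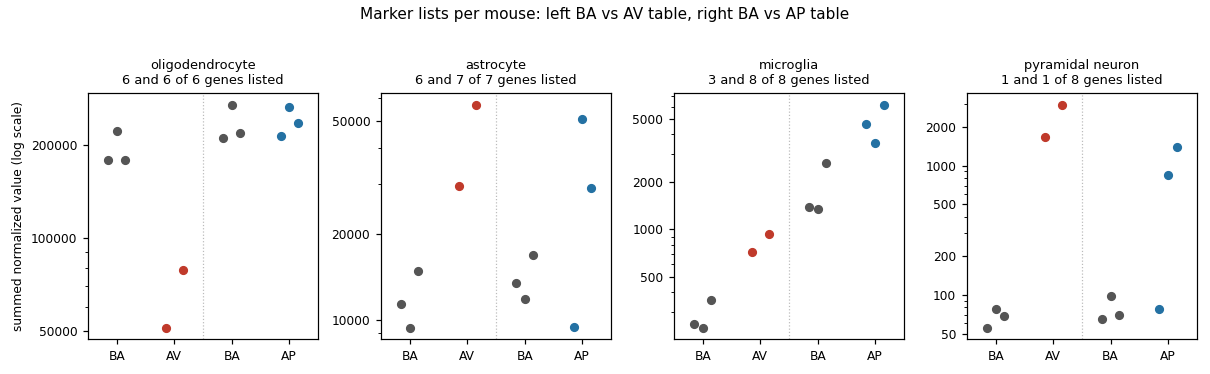
Summed normalized value (log axis) of the listed markers of oligodendrocytes, astrocytes, microglia and pyramidal neurons in each mouse, with the BA vs AV table to the left of the dotted line and the BA vs AP table to the right. Both AV mice lie under all BA mice for oligodendrocyte markers and above them for the other 3 lists, and all 3 AP mice lie above the BA mice for microglial markers.

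In BA mice the matrix genes with the highest level per length were Hapln2, Adamts4 and Bcan. Hapln2, a link protein found at nodes of Ranvier, reached a mean of 546 normalized units per kb of exon in the BA vs AP table, Adamts4, a protease that cuts lecticans, 391, and Bcan, the lectican brevican, 311. The values of these 3 genes per mouse overlapped along the order, as the plot of levels per kb shows, so that only the distance to the genes further down exceeded the spread between mice. The sheddase gene Adam10 (214 per kb) led the ADAM family, Timp2 (212 per kb) the TIMPs, Itgb1 (210.3 per kb) the integrin beta chains and Itgav (171 per kb) the alpha chains. Lamc1 was highest among laminins at 86.4 per kb, Col11a2 among fibrillar collagens at 47.4 per kb, Adamtsl4 among ADAMTS-like genes at 114 per kb, and Mmp12 among MMPs at 24.98 per kb. Both type I collagen genes stood near the bottom, Col1a1 at 3.82 and Col1a2 at 1.35 per kb.

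**Figure D2:**
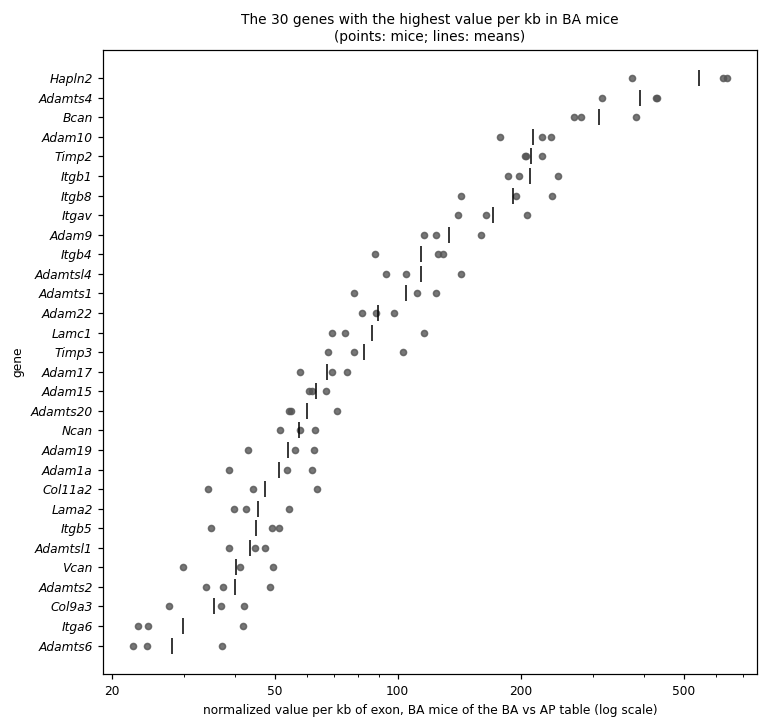
Normalized value per kb of exon (log axis) of the 30 members with the highest mean in BA mice of the BA vs AP table, where points are mice and the line is the mean. Hapln2, Adamts4 and Bcan lead, and the points of neighbouring genes overlap along most of the order.

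The first question was how AV mice differ from BA mice in these genes. In AV mice, matrix genes moved in both directions: collagen I, Ncan, Mmp17 and Itgb5 were higher, while Itgb4, Hapln2, Adamtsl4, Adamts4 and several ADAM genes were lower. With limma on log2(value + 1) and Benjamini-Hochberg adjustment over all 9872 genes at 0.05, 27 of 67 members were called (40.3%), against 29.7% of all genes. Of these 12 were higher (17.9%, against 13.6% of all genes) and 15 lower (22.4%, against 16.2%). The median log2 fold change was 0.08 over members and -0.03 over all genes, and 36 of 67 members lay above 0 (53.7%, against 48.5% of all genes). At an unadjusted p under 0.05 there were 36 members (53.7%, against 43.2%), 18 higher (against 20.2%) and 18 lower (against 23%). AV values did not overlap with BA values in 39 members (58.2%, against 58.9%), 18 of them higher (against 27.7%) and 21 lower (against 31.3%). The plot of fold changes gives the members by family.

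**Figure D3:**
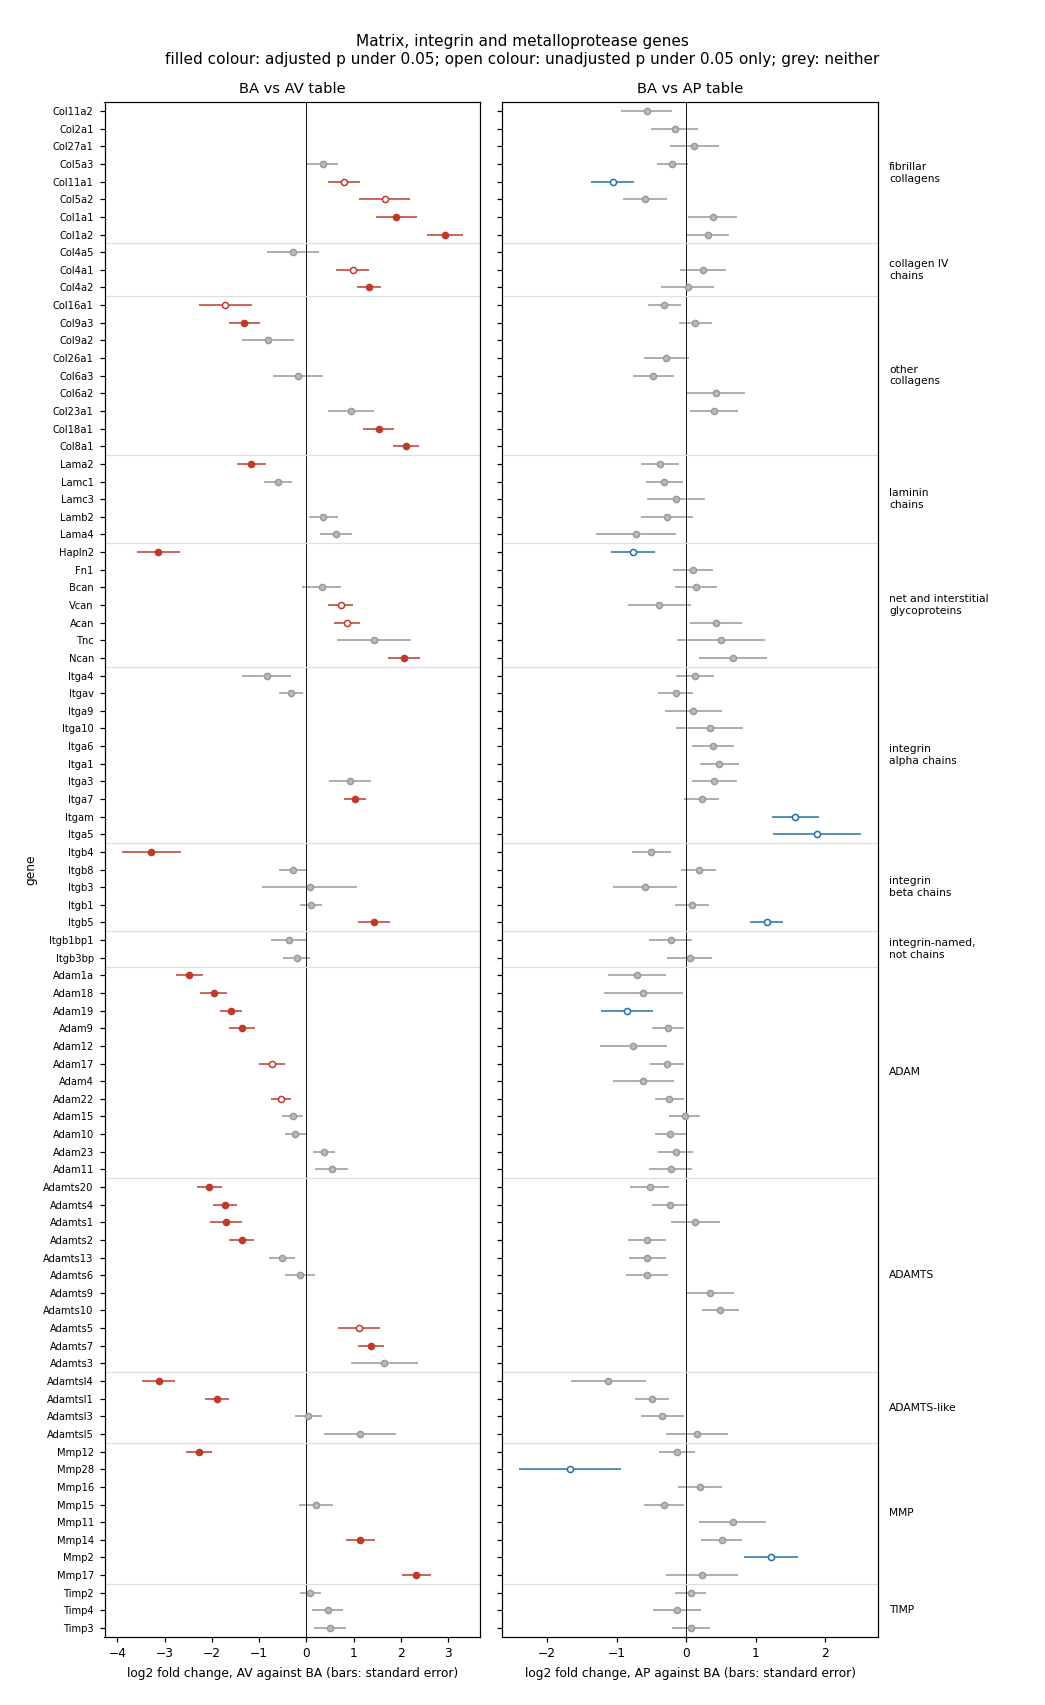
Log2 fold change on the log2(value + 1) scale with its standard error for the members, grouped by family, with 1 member not drawn, for AV against BA mice on the left and AP against BA mice on the right. Filled points passed an adjusted p of 0.05 (none on the right), open coloured points only an unadjusted p of 0.05.

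Leaving out 1 mouse at a time, the members called ranged from 19 (28.4%, against 16.1% of all genes in the same fit) without BA mouse 1 to 39 (58.2%, against 35.4%) without AV mouse 3, and 18 of the 27 kept their call each time. Because bulk RNA was measured, fewer cells of a type and less RNA per cell cannot be told apart in any of these values. Markers of glial cells moved too. Of the oligodendrocyte markers 4 of 6 were called lower in AV mice and none higher. Of the astrocyte markers 3 of the 6 listed were called higher, with sums between 9372 and 14898 in BA mice and between 29456 and 56875 in AV mice, and all 3 listed microglial markers were called higher, with sums between 237 and 354 in BA mice and between 722 and 939 in AV mice. All 3 listed markers of oligodendrocyte precursors were called, Pdgfra higher (1.81) and Olig1 (-0.98) and Olig2 (-1.17) lower. The single listed pyramidal marker, Camk2a, lay between 55.3 and 77.3 in BA mice and between 1656 and 2965 in AV mice, and none of 6 interneuron markers was listed. The part of these shifts in the results below was not tested.

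Of the hyaluronan-bound and interstitial glycoproteins, 6 were listed, with a median log2 fold change of 0.79. Of these 1 was called higher and 1 lower (13.6% and 16.2% of all genes). Hapln2 (ENSMUSG00000004894.10, chr3:88021750-88027583 on the minus strand, GRCm38) had normalized values of 1381, 1276 and 752 in BA mice 1 to 3 and 76.6 and 202 in AV mice 1 and 3. Both AV mice lay far under every BA mouse, and the BA mean was 8.15 times the AV mean. Here and below, log2 changes stand with their standard error, which for Hapln2 gave -3.13 ± 0.46 (limma adjusted p = 0.00513), with -2.43 without AV mouse 1 and -3.82 without AV mouse 3.

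Ncan (ENSMUSG00000002341.8, chr8:70093085-70120873, minus strand), which encodes the lectican neurocan, moved the other way. Its values were 355, 300.4 and 392 in BA mice and 1031 and 2052 in AV mice, so that the lower AV mouse was still above all BA mice and the AV mean was 4.42 times the BA mean. The log2 fold change was 2.06 ± 0.33 (limma adjusted p = 0.00634). The other lecticans did not pass the test. Vcan had 527, 597 and 370.4 in BA mice and 749.8 and 869 in AV mice (adjusted p = 0.0879), and Acan, the main lectican of perineuronal nets, 16.1, 17.4 and 10.8 and 25.9 and 28.4 (adjusted p = 0.0505). In both genes the AV mice lay above all BA mice. Bcan had 1360.3, 916 and 919.9 in BA mice against 831 and 2067 in AV mice, which lay on either side of the BA range, and Tnc, tenascin-C, had an adjusted p of 0.204 and values of 144, 21.02 and 103 in BA mice and 134 and 263 in AV mice, which overlapped. Fibronectin (Fn1) was not listed in the BA vs AV table.

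Fibrillar collagens were listed 5 times, all with a log2 fold change above 0 (48.5% of all genes) and a median of 1.66. Of these 2 were called higher (13.6% of all genes). These were the genes of both type I collagen chains. Col1a2 (ENSMUSG00000029661.16, chr6:4504814-4541544, plus strand) had 14.0, 18.1 and 12.1 in BA mice and 176 and 78.8 in AV mice, and Col1a1 had 12.02, 20.999 and 29.6 and 106 and 54.5. In both genes AV mouse 1 was the highest and no AV value overlapped with BA values. The log2 fold changes were 2.94 ± 0.38 (limma adjusted p = 0.00396) and 1.90 ± 0.44 (adjusted p = 0.0192). The call of Col1a1 was lost without BA mouse 1 (1.57, adjusted p = 0.0567) or BA mouse 2 (1.95, adjusted p = 0.0673). Col5a2 (1.66, adjusted p = 0.0585) and Col11a1 (0.80, adjusted p = 0.111) did not pass, although their AV values lay above all BA values. Of 6 markers of mural cells and fibroblasts only Pdgfrb and Dcn were listed, with sums between 40.2 and 167 in BA mice and of 113 and 114 in AV mice, and neither was called. Most of the sum was Pdgfrb, while Dcn, decorin, a fibroblast product, had 4.03, 2.01 and 6.28 in BA mice and 26.7 and 4.26 in AV mice, highest in AV mouse 1 as were both type I collagen genes. Its part in the collagen values was not tested.

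Of the basement membrane collagens, Col4a2 had 37.1, 55.5 and 47.1 in BA mice and 125 and 109 in AV mice, without overlap and with a log2 fold change of 1.32 ± 0.25 (limma adjusted p = 0.0106). Its chain partner Col4a1 was at 0.98 (adjusted p = 0.0753) and Col4a5, which overlapped, at -0.28. Markers of endothelial cells, 3 of 6 listed, summed to between 266 and 393 in BA mice and to 168 and 169 in AV mice. Their part in the collagen IV values was not tested. Of 7 other collagens, the called members were Col8a1 and Col18a1, both higher, and Col9a3, lower (13.6% and 16.2% of all genes). Col8a1, a network-forming collagen, and Col18a1, a basement membrane collagen, were no higher than the level that 3 reads give (5.68 normalized units, taken from the BA vs AP table) in all BA mice. Col8a1 had 13.9 and 17.9 in AV mice, a mean 2.80 times that level, and Col18a1 13.8 and 7.55, a mean 1.88 times it. Col9a3 had 124, 136 and 83.6 in BA mice and 56.6 and 35.2 in AV mice (-1.31 ± 0.32, adjusted p = 0.0234). The call of Col18a1 was lost without BA mouse 1 (adjusted p = 0.0581) or BA mouse 3 (adjusted p = 0.0512), and that of Col9a3 without BA mouse 1 (adjusted p = 0.0822) or BA mouse 2 (adjusted p = 0.0863). Col16a1 was at -1.71 (adjusted p = 0.0573).

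Among the laminin chains, Lama2 was called lower. This gene, which encodes the alpha chain of laminin in muscle, nerve and brain basement membranes, had 579.8, 580.4 and 743 in BA mice and 208 and 377 in AV mice, which did not overlap. Its log2 fold change was -1.17 ± 0.31 (limma adjusted p = 0.0312), and the call was lost without AV mouse 1 (-0.74, adjusted p = 0.0870) or without any 1 of the BA mice (adjusted p between 0.0797 and 0.0992). Lama4 (0.63), Lamb2 (0.36) and Lamc1 (-0.59) were not called.

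Of 9 integrin chains 2 were called higher and 1 lower (13.6% and 16.2% of all genes). Itgb4 (ENSMUSG00000020758.15, chr11:115974709-116008412, plus strand), a beta chain that pairs with alpha6 as a laminin receptor, was 1 of the 3 members, with Hapln2 and Adamtsl4, whose log2 fold change was under -3. It had 774, 773 and 515 in BA mice and 30.3 and 153 in AV mice, so that both AV mice were under every BA mouse but differed widely from each other. The log2 fold change was -3.29 ± 0.62 (limma adjusted p = 0.0104), with -2.14 without AV mouse 1 and -4.43 without AV mouse 3. Its partner Itga6 was not listed in the BA vs AV table.

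Itgb5 (ENSMUSG00000022817.15, chr16:33829665-33949338, plus strand), which pairs with alpha v as a vitronectin receptor, had 158, 102 and 152 in BA mice and 274 and 492 in AV mice. Both AV mice were above all BA mice (1.44 ± 0.34, limma adjusted p = 0.0209), and the call was lost without any 1 of the BA mice, with adjusted p between 0.0549 and 0.0742. Itga7, a laminin receptor chain, had 52.1, 46.3 and 44.1 in BA mice and 111 and 85.6 in AV mice, again without overlap (1.02 ± 0.23, adjusted p = 0.0182), and its call was likewise lost without any 1 of the BA mice, with adjusted p between 0.0513 and 0.0698. The abundant chains were not called. Itgb1 had 647, 828 and 681 in BA mice and 839.5 and 706 in AV mice (0.11 ± 0.23, adjusted p = 0.754), Itgav was at -0.32 ± 0.26 and Itgb8, which with alpha v activates latent TGF-beta, at -0.28 ± 0.29. Itga3 (0.93, adjusted p = 0.157) and Itga4 (-0.83, adjusted p = 0.260) did not pass either.

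In the ADAM family 8 of 10 listed genes had a log2 fold change under 0, as did 5080 of all 9872 genes. Of the 10, 4 were called, all lower, against 16.2% of all genes. Adam19 had 376, 322 and 266 in BA mice and 107 and 102 in AV mice (-1.60 ± 0.24, limma adjusted p = 0.00521), and Adam9 had 426, 535 and 436 and 142 and 229 (-1.36 ± 0.28, adjusted p = 0.0134). Both are active sheddases, and in both every AV mouse lay under every BA mouse. The call of Adam9 was lost without BA mouse 2 (-1.25, adjusted p = 0.0588). Adam1a and Adam18 belong to the ADAMs best known from sperm. Adam1a had 399, 328 and 231 in BA mice and 53.3 and 57.1 in AV mice (-2.48 ± 0.28, adjusted p = 0.00328), but 4779 of its 7508 exon bases are shared with Gm42878 and 1805 with Mapkapk5 on the same strand, so the gene its reads came from is uncertain. Adam18 had 13.2, 12.2 and 8.41 in BA mice, a mean 1.98 times the level that 3 reads give. In AV mice it was no higher than that level.

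The main shedding enzymes did not pass the test. Adam10, the alpha-secretase of the amyloid precursor protein, had 752, 968 and 937 in BA mice and 771 and 729 in AV mice (-0.23 ± 0.23, limma adjusted p = 0.467). Adam17, the TNF convertase, was at -0.73 (adjusted p = 0.0821) and Adam15 at -0.29 (adjusted p = 0.356). Of the ADAMs without protease activity that bind LGI proteins at synapses and axons, Adam22 was at -0.53 (adjusted p = 0.103), Adam23 at 0.37 (adjusted p = 0.274) and Adam11 at 0.54 (adjusted p = 0.276).

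Among 9 ADAMTS genes 4 were called lower and 1 higher (16.2% and 13.6% of all genes). Adamts4 (ENSMUSG00000006403.13, chr1:171250421-171260637, plus strand) had 1855, 1721 and 1286 in BA mice and 448 and 532 in AV mice, a gap wider than the spread of either group (-1.71 ± 0.25, limma adjusted p = 0.00513). Adamts1, also a lectican-cutting enzyme, had 517, 333 and 558 and 109.6 and 182 (-1.69 ± 0.34, adjusted p = 0.0119, 0.0529 without BA mouse 1). Adamts20 had 437, 420.2 and 542 in BA mice and 90.0 and 137 in AV mice (-2.05, adjusted p = 0.00408), and Adamts2, which trims procollagens, was at -1.37 (adjusted p = 0.0111). In all 4 genes both AV mice lay under every BA mouse. Adamts7 was no higher than the level that 3 reads give in BA mice. It had 18.3 and 11.3 in AV mice, a mean 2.60 times that level, and Adamts3 was at 1.65 (adjusted p = 0.122).

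The ADAMTS-like proteins share the ancillary domains of ADAMTS enzymes but lack the protease. Adamtsl4 (ENSMUSG00000015850.11, chr3:95676201-95687917, minus strand), which binds fibrillin microfibrils, had 509, 367 and 318 in BA mice and 31.5 and 60.9 in AV mice. The lowest BA mouse was thus far above the higher AV mouse (-3.13 ± 0.35, limma adjusted p = 0.00328). Adamtsl1 had 429, 515 and 465 and 104 and 153 (-1.88 ± 0.25, adjusted p = 0.00415), while Adamtsl5 (1.13) was not called.

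Of 4 MMPs 2 were called higher, both bound to the cell membrane, and 1 lower (13.6% and 16.2% of all genes). Mmp17, a GPI-anchored MMP, had 9.91, 13.6 and 13.4 in BA mice and 49.1 and 86.6 in AV mice, 5.51 times as high by the means and without overlap (2.33 ± 0.31, limma adjusted p = 0.00408). Mmp14, the activator of pro-MMP2, had 54.5, 47.1 and 78.8 and 161 and 107 (1.15 ± 0.31, adjusted p = 0.0333), a call lost without AV mouse 1 (adjusted p = 0.0827), BA mouse 1 (0.104) or BA mouse 2 (0.111). Mmp12, macrophage elastase, had 168, 166 and 233 in BA mice and 32.0 and 44.5 in AV mice (-2.27 ± 0.27, adjusted p = 0.00335). Of 8 microglial markers the 3 listed were higher in AV mice, and their part in the Mmp12 values was not tested. Mmp15 was at 0.20 and was not called. None of the 3 TIMPs was called, and all overlapped between groups. Timp2 had 769, 655 and 697 in BA mice and 799 and 699 in AV mice (0.08 ± 0.22), Timp3 was at 0.50 ± 0.34 and shares 1733 exon bases with Syn3 on the opposite strand, and Timp4 was at 0.45 ± 0.34.

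**Figure D4:**
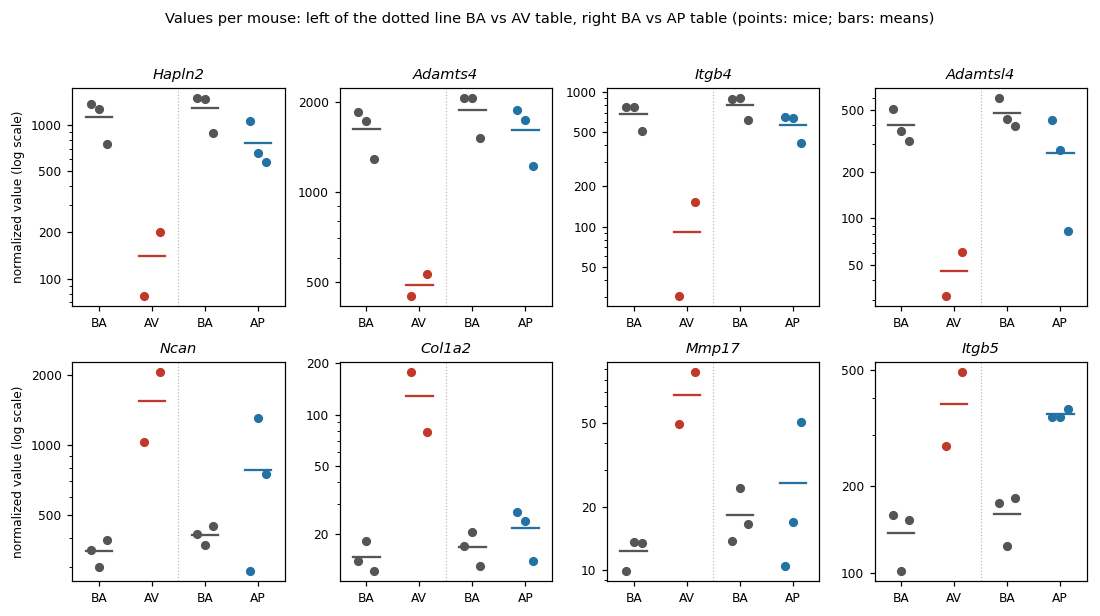
Normalized values per mouse (log axis) of 8 members, with the BA vs AV table to the left of the dotted line and the BA vs AP table to the right; points are mice and bars are group means. In the upper row both AV mice lie under all BA mice, in the lower row above them, and of these 8 genes only Itgb5 has all AP mice above all BA mice.

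The promoters of members at both ends of this range are shown because genes that moved in opposite directions can be read side by side. Each is the part of the 250 bases before the RefSeq start (GRCm38.p6) that holds no exon base of the gene in GENCODE, written 5′ to 3′ on the gene's strand, with matches on either strand to the TATA box (TATAAA), the CCAAT box (CCAAT) and the GC box (GGGCGG) in capitals. Hapln2 and Adamtsl4 were called lower in AV mice, Ncan, Col1a2 and Itgb5 higher, and Itgam is described with AP mice. The Col1a2 stretch lies inside the GENCODE gene but in none of its exons.
Hapln2, chr3:88027584-88027761, minus strand: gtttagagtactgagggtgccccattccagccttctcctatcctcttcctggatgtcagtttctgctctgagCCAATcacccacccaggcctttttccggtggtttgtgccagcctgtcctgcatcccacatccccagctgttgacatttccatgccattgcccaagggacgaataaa
Adamtsl4, chr3:95687918-95688167, minus strand: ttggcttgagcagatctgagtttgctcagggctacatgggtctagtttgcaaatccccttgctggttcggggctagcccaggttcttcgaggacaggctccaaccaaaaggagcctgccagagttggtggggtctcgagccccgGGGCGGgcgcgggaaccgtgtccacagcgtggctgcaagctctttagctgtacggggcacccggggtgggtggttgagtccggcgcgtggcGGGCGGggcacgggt
Ncan, chr8:70120874-70121094, minus strand: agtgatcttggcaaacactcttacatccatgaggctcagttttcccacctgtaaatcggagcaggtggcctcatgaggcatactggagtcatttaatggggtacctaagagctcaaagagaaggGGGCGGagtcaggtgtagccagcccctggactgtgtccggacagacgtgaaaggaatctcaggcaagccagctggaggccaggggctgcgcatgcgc
Col1a2, chr6:4505370-4505492, plus strand: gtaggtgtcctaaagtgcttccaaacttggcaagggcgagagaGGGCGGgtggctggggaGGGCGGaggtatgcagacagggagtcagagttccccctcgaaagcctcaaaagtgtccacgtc
Itgb5, chr16:33829415-33829664, plus strand: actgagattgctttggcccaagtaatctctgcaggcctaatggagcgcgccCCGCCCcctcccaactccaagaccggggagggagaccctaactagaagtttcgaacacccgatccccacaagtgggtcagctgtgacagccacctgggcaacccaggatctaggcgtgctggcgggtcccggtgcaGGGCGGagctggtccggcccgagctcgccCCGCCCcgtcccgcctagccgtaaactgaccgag
Itgam, chr7:128062390-128062639, plus strand: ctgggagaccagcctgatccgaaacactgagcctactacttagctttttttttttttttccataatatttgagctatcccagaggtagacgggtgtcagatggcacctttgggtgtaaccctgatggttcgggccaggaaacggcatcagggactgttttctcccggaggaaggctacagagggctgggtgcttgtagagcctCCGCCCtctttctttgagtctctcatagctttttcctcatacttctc
The Hapln2 stretch held 1 CCAAT box, no GC box and 2 CG pairs, whereas that of Itgb5 held 3 GC boxes and 18 CG pairs and that of Adamtsl4 2 GC boxes and 17 CG pairs. Over the full 250 bases, RefSeq promoters matched 60 of the 88 members, and 68.3% of them held a GC box, 31.7% a CCAAT box and 6.67% a TATA box. Over the 9417 matched promoters of all listed genes these shares were 59.2%, 36.6% and 6.45%, and over all 27025 promoters 32.9%, 34.5% and 13.0%. All 7 matched promoters of members called higher in AV mice held a GC box, as did 4 of the 9 of members called lower, with a median of 11 and 5 CG pairs, against 14.5 over all matched members and 16 over all listed genes. A match of letters is a description and not a binding site.

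Other matrix and adhesion genes outside the rule were read from 5 further lists, in which 33 genes were called in AV mice. Among the 9872 genes tested, the comparable shares were 29.7% called, 13.6% higher and 16.2% lower. Without BA mouse 2 the call was lost in 23 of the 33, and 10 kept it without any 1 mouse. Of the genes named here and in the next paragraph, Ptk2b, Serpinh1, Cst3, Nrg1 and Lgi3 were among these 10, while Fbln2, Bcar1, Fkbp14 and Pcsk6 were not. Of basement membrane components and proteoglycans 20 of 50 were listed, 6 were called higher and none lower, with a median log2 fold change of 1.05, from Vwf, von Willebrand factor (-1.22, adjusted p = 0.0849), to Fbln2, fibulin-2 (2.37, limma adjusted p = 0.0117). Of the adhesion machinery inside the cell 30 of 34 were listed, with 3 called higher and 5 lower and a median of -0.08. Ptk2b, the kinase Pyk2, rose most (2.46, adjusted p = 0.00288) and the scaffold Bcar1 fell most (-1.25, adjusted p = 0.0123).

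Of enzymes that mature collagen and matrix 15 of 29 were listed, with 3 called in each direction and a median of -0.13. Serpinh1, the collagen chaperone HSP47, rose by 1.94 on the log2 scale (limma adjusted p = 0.00431), and the prolyl isomerase Fkbp14 was at -2.91 (adjusted p = 0.0222). Of pericellular proteases and inhibitors 16 of 27 were listed, again with 3 called in each direction and a median of -0.03, from Pcsk6 at -1.49 to the cathepsin inhibitor Cst3 at 2.14 (adjusted p = 0.0169 and 0.00576). Of LGI proteins and the partners and substrates of the secretases 18 of 22 were listed, with 1 called higher, Nrg1 (2.64, adjusted p = 0.0110), and 6 lower, led by Lgi3 (-2.02, adjusted p = 0.00696), and a median of -0.57.

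The second question was how AP mice differ from BA mice. No member passed the adjusted test with limma over 11820 genes (0 of 80, against 0.00846% of all genes, which is 1 gene). At an unadjusted p under 0.05 there were 8 members (10%, against 7.77% of all genes), 4 higher (against 4.99%) and 4 lower (against 2.77%). The groups did not overlap in 7 members (8.75%, against 12.1%), 5 of them higher (against 5.64%) and 2 lower (against 6.45%), and 37 lay above 0 (46.2%, against 46.5%). The median log2 fold change was -0.14 over members and -0.03 over all genes. Leaving out 1 mouse at a time, the 8 became 5 without BA mouse 2 (6.25%, against 6.2% of all genes in that fit) and 21 without AP mouse 1 (26.2%, against 15.3%), and 4 of the 8 (Itgb5, Itgam, Mmp2 and Col11a1) passed the unadjusted test each time. AP mouse 3 had the lowest value of the 6 mice in 34 of 80 members (42.5%), against 28.3% of all genes. It also had 114 genes at the lowest value of the table, against 9 to 37 in the other mice. Camk2a had 64.9, 98.3 and 69.4 in BA mice and 77.0, 843 and 1401 in AP mice 1 to 3. The part of these differences in the results below was not tested. Values and changes below are descriptions of these mice, since none passed the adjusted test.

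Of 15 integrin chains 3 had an unadjusted p under 0.05, all higher in AP mice (4.99% of all genes). Itgb5 had 175, 124 and 182 in BA mice and 347, 344 and 369 in AP mice, with the lowest AP mouse well above the highest BA mouse (1.15 ± 0.23, limma adjusted p = 0.256). It was the only 1 of the 59 members in both tables whose AV and AP values each lay above all BA values, with BA mice that are the same in both comparisons. That count was not made over all genes in both tables. Itgam (ENSMUSG00000030786.18, chr7:128062640-128118491, plus strand), the alpha chain CD11b of microglia and other myeloid cells, had 126, 85.0 and 185 in BA mice and 383, 279 and 485 in AP mice, again without overlap (1.56 ± 0.34, adjusted p = 0.303).

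The 8 microglial markers, all listed, summed to between 1339 and 2649 in BA mice and between 3523 and 6177 in AP mice, and each of the 8 had AP values above all BA values. Their part in the difference of Itgam was not tested. Of the exon bases of Itgam 3450, or 68.7%, are shared with Gm49368 on the same strand. Itgb2, the beta chain that pairs with Itgam, was not listed. Itga5, the fibronectin receptor chain, had 11.6, 8.15 and 11.8 in BA mice and 85.0, 11.9 and 64.7 in AP mice, so that AP mice 1 and 3 stood far above the rest while AP mouse 2 was barely above the BA mice (1.88 ± 0.63, adjusted p = 0.508). Its unadjusted p rose above 0.05 without AP mouse 1 or BA mouse 2.

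Of the 10 alpha chains 9 had a log2 fold change above 0 (46.5% of all genes), with a median of 0.36. Itga3 was at 0.41, Itga6 at 0.39 and Itga7 at 0.22, while Itgav was at -0.15, each with overlapping groups. Itgb4, so much lower in AV mice, had 882, 903 and 616 in BA mice and 652, 642 and 413 in AP mice, which overlapped (-0.50 ± 0.28, limma adjusted p = 0.700). Itgb1 (0.08 ± 0.25) and Itgb8 (0.18 ± 0.25) overlapped as well.

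Among 8 MMPs 1 was past an unadjusted p of 0.05 in each direction (4.99% of all genes higher, 2.77% lower). Mmp2, gelatinase A, had 8.39, 18.4 and 5.68 in BA mice and 24.7, 28.2 and 19.3 in AP mice, with every AP mouse above every BA mouse by a small margin (1.22 ± 0.38, limma adjusted p = 0.477). Mmp28, epilysin, had 47.8, 33.8 and 27.7 in BA mice and 16.8, 27.5 and 2 in AP mice (-1.67 ± 0.73, adjusted p = 0.643). AP mouse 3 was at the lowest value of the table, and the log2 fold change was -0.70 without that mouse. The unadjusted p was above 0.05 without AP mouse 3 and without any 1 of the BA mice. Mmp14 (0.51), Mmp16 (0.19) and Mmp17 (0.23) overlapped between groups, and AP mouse 3 alone had a high Mmp17 value in the plot of values per mouse.

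All 12 listed ADAM genes had a log2 fold change under 0 in AP mice, as did 6329 of all 11820 genes. Their median was -0.27, with a range from -0.85 (Adam19) to -0.02 (Adam15), and the groups overlapped in each of them. Adam19 had 443, 399.7 and 306 in BA mice and 378, 167 and 145 in AP mice, where AP mouse 1 lay inside the BA range and the other 2 under it (limma adjusted p = 0.643). Its unadjusted p rose above 0.05 in 4 of 6 fits without 1 mouse, those without AP mouse 2 or 3 and BA mouse 1 or 2. Adam10 was at -0.23 ± 0.22, Adam17 at -0.28 ± 0.24, Adam9 at -0.26 ± 0.23, Adam22 at -0.24 ± 0.21, Adam23 at -0.15 ± 0.25 and Adam11 at -0.22 ± 0.31, all with overlapping groups. The 8 ADAMTS genes ranged from -0.57 (Adamts2) to 0.49 (Adamts10), and Adamts4 was at -0.23 ± 0.26. Adamtsl4 had 599.8, 439.7 and 393 in BA mice and 433, 278 and 83.1 in AP mice, of which only AP mouse 1 lay inside the BA range (-1.12 ± 0.54, adjusted p = 0.683).

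Of the glycoproteins, Hapln2 had 1515, 1480.0 and 886 in BA mice and 1066, 657 and 578 in AP mice, where AP mouse 1 lay inside the BA range (-0.76 ± 0.32, limma adjusted p = 0.637). Its unadjusted p rose above 0.05 in 4 of 6 fits without 1 mouse, those without AP mouse 2 or 3 and BA mouse 1 or 2. The oligodendrocyte markers summed to between 210544 and 270638 in BA mice and between 214175 and 265075 in AP mice, within the same range. Ncan had 414, 371 and 451 in BA mice and 287, 1308 and 749 in AP mice, which lay on both sides of the BA values (0.67 ± 0.49, adjusted p = 0.740). The astrocyte markers summed to between 11823 and 16826 in BA mice and to 9479, 50498 and 29021 in AP mice 1 to 3. Their part in the Ncan values was not tested. Fn1 (0.10), Bcan (0.14), Vcan (-0.38), Acan (0.43) and Tnc (0.50) overlapped between groups, as did Timp2 (0.06), Timp3 (0.07) and Timp4 (-0.13).

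Of 8 fibrillar collagens Col11a1, a chain of a minor fibril collagen, had 28.6, 19.4 and 24.1 in BA mice and 12.2, 6.96 and 14.98 in AP mice, every AP mouse under every BA mouse (-1.06 ± 0.31, limma adjusted p = 0.422). The type I collagen genes, higher in AV mice, overlapped here. Col1a2 was at 0.32 ± 0.30 and Col1a1 at 0.38 ± 0.35. The collagen IV genes Col4a1 (0.24) and Col4a2 (0.02) overlapped as well. All 5 laminin chains had a log2 fold change under 0, from -0.72 (Lama4) to -0.15 (Lamc3), as did 6329 of all 11820 genes. None of 6 mural and fibroblast markers was listed in the BA vs AP table.

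In the 5 further lists no gene passed the adjusted test in AP mice with limma. At an unadjusted p under 0.05 stood 7.77% of the 11820 genes tested, with 4.99% higher and 2.77% lower. By this cut, 1 of 27 listed basement membrane and proteoglycan genes was higher and none lower. The adhesion machinery had 4 of 33 genes higher and none lower, led by Parvg, the parvin of blood cells (1.51, adjusted p = 0.235). Of 16 maturation enzymes 2 were higher and 1 lower, with Tgm2, tissue transglutaminase, at 1.55 and Pcolce2 at -1.85. Of 20 pericellular proteases and inhibitors 4 were higher and 1 lower, from Ctss, the cathepsin S of myeloid cells, at 1.89 (adjusted p = 0.259) to Pcsk5 at -0.83. None of 19 LGI and secretase genes passed.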

How the data were processed

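Stranded RNA-seq of sorted amygdala cells was available as 2 tables. Per the labels, the submitters' processing notes name bcl2fastq 2.20, Salmon 1.2 and GRCm38.p6. The authors deposited a normalized signal per gene: TMM-normalized values after a filter on low counts, with ARSyN batch correction named in the study but not tied to a table. Depth cannot be read from these values. Each mouse of the BA vs AP table had 2 as its lowest value, and between 79.6% and 89.5% of values under 15 fell within 0.02 of a step of 0.708 to 1.23, taken as 1 read. The level of 3 reads was thus 4.13 to 5.68. The highest of these was also used for the BA vs AV table, for which no step was derived. Multiples of this level are group means over 5.68 and take no account of the error of the mean.

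Ensembl IDs were matched to GENCODE M21 (9871 of 9872 and 11778 of 11820 IDs), which also gave exon lengths. Members and lists were chosen with earlier results of these data known. Each table was fitted alone, on log2(value + 1), with limma 3.58.1 (R 4.3.3). All genes of the table and no covariates entered, and p-values were Benjamini-Hochberg adjusted at 0.05; fold changes on this scale understate those of low genes. The fit was tested on simulated data. The study's NOISeq test was not used. Named were members called in AV mice, members with an unadjusted p under 0.05 in AP mice, the highest and most changed members of each family, listed net glycoproteins and TIMPs, and common integrin partners, sheddases and MMPs. Col4a1, Col5a2, Lama4, Lamb2 and Mmp15 in AV mice were chosen after their values were seen. Alternatives were another pseudocount (0.5 or 5), a minimum mean of 20, median centring, quantile normalization, a variance trend, subtraction of the lowest value, other thresholds (0.01 or 0.1), a replicate block and leaving out each mouse. AV mouse 2 was not analysed here, 1 member counted above is not reported by name, and no protein sequences were used.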

Additional observations from a re-analysis of the deposited data

Results flagged for a closer look

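Col11a1 lay on opposite sides of the BA mice in the 2 comparisons. In AV mice its values (50.7 and 27.5) lay above all BA mice of that table (27.1, 17.4 and 19.6), with a log2 fold change of 0.80, and in AP mice (12.2, 6.96 and 14.98) they lay under all BA mice (28.6, 19.4 and 24.1), with a log2 fold change of -1.06. Neither difference passed the limma test over all genes (adjusted p = 0.111 and 0.422), AV mouse 3 was only just above the highest BA mouse, and both comparisons use the same BA mice. The difference between AV and AP mice was not tested. Col11a1 was the only 1 of the 59 members in both tables with this pattern, but how many of all shared genes had it was not counted. No group held 4 mice, so single mice were not tested as outliers.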

How the results depend on the processing

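The 27 members called in AV mice were between 23 and 34 with another pseudocount, a minimum mean of 20, median centring, quantile normalization, a variance trend or a threshold of 0.1, and became 14 at a threshold of 0.01. With the replicate block 15 were called (4 higher, 11 lower, or 22.4% against 9.83% of all genes). As AV mouse 2 is absent, BA mouse 2 has no partner and adds nothing to the fold changes of that fit. They equal those without BA mouse 2, so that the lost calls also reflect fewer mice and not pairing alone. The 12 calls lost included that of Itgb4 (-3.19, adjusted p = 0.0507), and 23 of the 33 calls of the further lists were lost. The numbers were not shown to pair the mice. Deviations of same-numbered mice from their group means correlated over genes at -0.06 and -0.04 in AV mice. With 2 AV mice the deviations mirror each other, so these values are not independent. In AP mice they correlated at 0.02, 0.12 and 0.08, each mouse best with its own number. Deviations cancel within a group, so these values are not independent either and cannot show pairing. Without 1 mouse the count ranged from 19 (without BA mouse 1) to 39 (without AV mouse 3), and the members' median log2 fold change from -0.02 to 0.17. That median of 0.08 became -0.16 with a minimum mean of 20, which removes members of low value. Member calls lost without 1 mouse are named beside each gene. Of the 33 calls in the further lists 10 kept their side of the threshold without any 1 mouse. In AP mice no member was called under any of these settings. The 8 members with an unadjusted p under 0.05 (10%, against 7.77% of all genes) became 13 with a variance trend (16.2%, against 8.28%). They became 12 with the replicate block (15%, against 8.97%). With a pseudocount of 0.5 (7.5%, against 7.63%) or the lowest value subtracted (7.5%, against 7.23%) they became 6. Without 1 mouse they were between 5 (6.25%, against 6.2%) and 21 (26.2%, against 15.3%). No called member changed direction in any fit. With 2 AV mice, the fit without either of them rests on 1 mouse assumed to vary as BA mice do. Depth is unknown in the BA vs AV table, which limits members near the level of 3 reads.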

Other observations

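Some members, chosen here after their values were seen, differed widely between mice of a group. Itgb3, the beta chain of the platelet and vitronectin receptors, had 183 and 10.8 in AV mice 1 and 3 and 49.1, 45.1 and 36.5 in BA mice, so that 1 AV mouse stood above and the other under every BA mouse. Tnc had 144, 21.02 and 103 in BA mice 1 to 3.

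The members together took between 0.445% and 0.554% of all normalized values per mouse in the BA vs AV table. The ADAMTS genes summed to between 2956 and 3436 in BA mice and to 1057 and 1204 in AV mice, and the fibrillar collagens to between 88.9 and 101 in BA mice and to 483 and 208 in AV mice. Between BA mice the median SD of log2 values was 0.29 over the 59 members in both tables and 0.23 over all 9417 shared genes in the BA vs AV table, and 0.27 and 0.23 in the BA vs AP table.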
